A study of Mus musculus with 9 samples.

Results

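The glutathione S-transferase genes of the alpha, mu and pi classes were followed across the livers of 9 male FVB mice. They were picked out by symbol, 9 of the 24419 symbols in the deposited table: 4 alpha genes (Gsta1 to Gsta4), 4 mu genes (Gstm1 to Gstm4) and the pi gene Gstp1. The list of symbols was made with earlier results of these data known. MODEL2 mice, 3 in number and 19, 20 and 22 weeks old, carried NFE2L2 T80K and CTNNB1 T41A, changed forms of the transcription factor NRF2 and of beta-catenin, from injected plasmids. MODEL1 mice, 3 in number and 18 weeks old, carried NFE2L2 G31A with the same CTNNB1 T41A. Both models were made by hydrodynamic tail vein injection of 20 µg of each plasmid in 2 ml saline with a Sleeping Beauty transposase, which places the cargo in the genome of the hepatocytes it reaches. CTRL mice, 3 in number, were 13, 13 and 17 weeks old, and the labels do not say whether they were injected. Controls in the design text had wild-type NFE2L2 beside the beta-catenin mutant, but nothing ties the sequenced CTRL mice to them. Both models formed liver tumours per the design text, earlier with G31A, and the labels do not say how much of each sample was tumour. Neither model carried 1 of its mutants alone, so the effects of the 2 mutants cannot be told apart.

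Glutathione S-transferases are cytosolic enzymes that join the tripeptide glutathione to reactive, electrophilic compounds such as drug metabolites and products of lipid oxidation. The conjugates are then exported and broken down to mercapturates. Subunits pair mostly within a class, and the liver is rich in alpha and mu enzymes. NRF2, held at low levels by KEAP1, activates many of these genes through antioxidant response elements, and beta-catenin sets the genes that mark hepatocytes around the central vein.

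Some of the members are close to each other in sequence, which bears on how far their reads can be separated. The first coding bases of the mu genes are shown because most mu counts fell in genes of this set, with capitals where a base differs from Gstm1 (GENCODE M21 transcripts, build mm10).
Gstm1 coding start: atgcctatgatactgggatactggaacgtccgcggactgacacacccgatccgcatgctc
Gstm2 coding start: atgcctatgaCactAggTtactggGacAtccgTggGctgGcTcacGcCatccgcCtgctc
Gstm3 coding start: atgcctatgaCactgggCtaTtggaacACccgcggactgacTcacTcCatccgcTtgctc
Gstm4 coding start: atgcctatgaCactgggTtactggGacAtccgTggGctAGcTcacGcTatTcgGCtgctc
Over these 60 bases Gstm2 differed from Gstm1 at 12, Gstm3 at 9 and Gstm4 at 14. For the alpha genes capitals mark differences from Gsta1, and Gsta2 has none in this stretch.
Gsta1 coding start: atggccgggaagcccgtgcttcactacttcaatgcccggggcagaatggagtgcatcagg
Gsta2 coding start: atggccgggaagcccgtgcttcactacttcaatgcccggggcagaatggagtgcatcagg
Gsta3 coding start: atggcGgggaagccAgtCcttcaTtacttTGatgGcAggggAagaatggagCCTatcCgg
Gsta4 coding start: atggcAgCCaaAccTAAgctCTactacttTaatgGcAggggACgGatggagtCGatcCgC
Over the whole coding sequence Gsta1 and Gsta2 were 98.05% identical, Gstm1 and Gstm3 89.45%, and Gstm1 and Gstm4 80.12%. Of the 50-base stretches in a member's annotated transcripts, 90.5% were also found in another gene for Gsta1, 49.8% for Gsta2, 33.7% for Gstp1, 28.8% for Gstm3, 18.9% for Gstm1, 5.66% for Gstm2 and 0.273% for Gsta3. Gsta4 and Gstm4 shared none. The gene that shared most 50-base stretches was often no member: Gm3776 for Gsta1 (75.7%), Gm8834 for Gstm3 (16.0%), Gstm2-ps1 for Gstm1 (14.1%) and Gm12499 for Gstm2 (3.33%). For Gsta2 it was Gsta1 (36.0%) and for Gstp1 it was Gstp2. With 100-base stretches the share was 80.6% for Gsta1, 28.4% for Gsta2, 25.1% for Gstp1, 13.8% for Gstm3, 5.86% for Gstm1 and 0.357% for Gstm2. The read length and the handling of reads that map to several genes are not given in the sources used here, so the values of Gsta1, Gsta2 and Gstp1 in particular are uncertain as values of single genes.

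**Figure D1:**
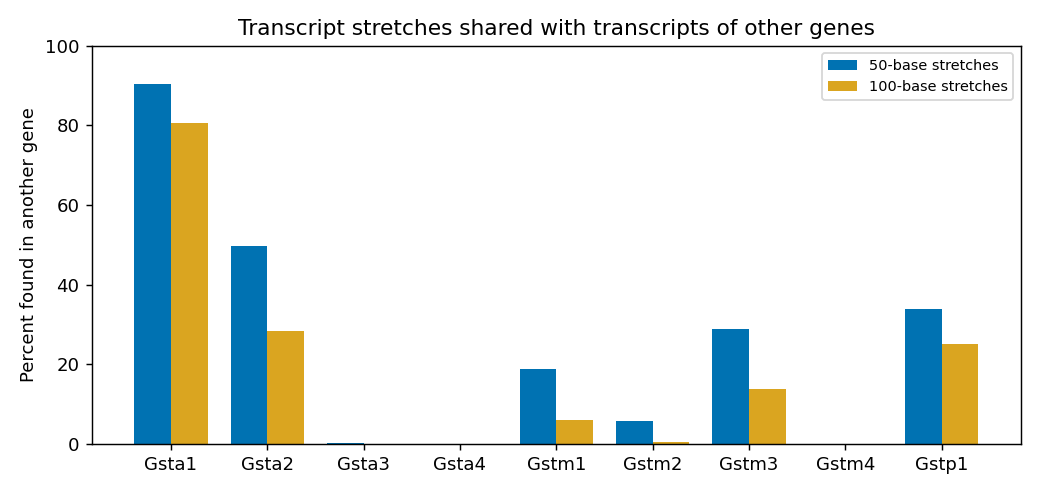
Percent of the distinct 50-base (blue) and 100-base (gold) stretches of each member's annotated transcripts that also occur in a transcript of another gene. Gsta1 is highest at 90.5%, whereas Gsta4 and Gstm4 have none.

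The members lie at 4 places in the genome (mm10). The mu genes stand together on the minus strand of chromosome 3, in the order Gstm3 (107963696-107969283), Gstm2 (107981702-107986453), Gstm1 (108012255-108017973) and Gstm4 (108040408-108044894). Gsta4 (78182774-78209349, plus), Gsta1 (78230656-78242684, plus) and Gsta2 (78331018-78355788, minus) stand together on chromosome 9. Gsta3 is on chromosome 1 (21240589-21265661, plus) and Gstp1 on chromosome 19 (4035407-4037985, minus). The labels do not say whether the libraries kept strand, and no member has an annotated exon on the opposite strand over its own exons.

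RefSeq promoter windows (GRCm38.p6, 250 bases before to 50 after the start site) were matched by symbol for 8 members, all but Gsta4. Both strands were searched for TGACNNNGC, the core of the antioxidant response element, and for TGANTCAGC, a Maf-type element; the first motif also covers the second where its N is C. The first was found in 12.4% and the second in 1.19% of all 32851 windows. Among the members, TGACNNNGC was found in the Gsta3 window, 121 bases before the start site, and TGANTCAGC in the Gstp1 window, 74 bases before it. The windows of Gsta1, Gsta2 and Gstm1 to Gstm4 held neither set of letters, which says nothing of binding there. The 250 bases before the start site are printed, 5′ to 3′, for Gstm4 and Gstm1, the mu genes with the highest levels, and for both genes with a match, which is in capitals.
Gstm4 promoter, chr3:108044860-108045109, minus strand: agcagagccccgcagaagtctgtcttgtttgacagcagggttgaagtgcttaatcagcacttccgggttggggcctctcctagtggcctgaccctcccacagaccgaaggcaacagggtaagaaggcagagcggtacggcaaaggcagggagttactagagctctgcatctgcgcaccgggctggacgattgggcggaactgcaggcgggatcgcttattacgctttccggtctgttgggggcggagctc
Gstm1 promoter, chr3:108017974-108018223, minus strand: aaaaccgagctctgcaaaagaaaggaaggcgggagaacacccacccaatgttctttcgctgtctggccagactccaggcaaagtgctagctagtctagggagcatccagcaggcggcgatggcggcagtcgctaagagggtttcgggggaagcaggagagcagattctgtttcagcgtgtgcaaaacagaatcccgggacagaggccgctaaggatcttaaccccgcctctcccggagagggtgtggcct
Gsta3 promoter, chr1:21240335-21240584, plus strand: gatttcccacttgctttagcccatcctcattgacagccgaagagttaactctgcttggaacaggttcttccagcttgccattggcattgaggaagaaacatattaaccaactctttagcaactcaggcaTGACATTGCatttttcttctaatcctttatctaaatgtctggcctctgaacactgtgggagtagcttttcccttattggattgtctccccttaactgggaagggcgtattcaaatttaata
Gstp1 promoter, chr19:4037913-4038162, minus strand: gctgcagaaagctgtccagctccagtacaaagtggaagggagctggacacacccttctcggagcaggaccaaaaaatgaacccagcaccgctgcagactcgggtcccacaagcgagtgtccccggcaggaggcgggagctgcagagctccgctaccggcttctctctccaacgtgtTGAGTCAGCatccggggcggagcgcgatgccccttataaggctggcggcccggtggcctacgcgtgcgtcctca

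The libraries held few deposited counts. Totals ran from 219504 to 325177 counts, so that 3 counts in a library, the limit that a count of 0 allows, came to 9.43 to 14.6 CPM. CPM (counts-per-million) are counts scaled by the library's effective size, which is the count in the 2639 tested genes times a TMM factor. These genes, and 4 members among them, Gsta3, Gstm1, Gstm3 and Gstm4, passed edgeR's filter on low counts. The other 5 members were too low and are given as counts, with a fit that used no filter. Because the filter can be passed through a group in which a gene is high, the 4 are not a fair sample of the members, and the same holds for the tested genes of the other lists. All 8 hepatocyte markers were detected in these livers. Their summed level was 1171 to 1638 CPM in MODEL2, 880 to 1389 CPM in MODEL1 and 2373 to 2984 CPM in CTRL. Alb, a hepatocyte marker, had 460 counts in MODEL2, 457 in MODEL1 and 783 in CTRL. Whether reads were lost in counting, for example by strand, was not tested, so all levels here are those of the deposited counts. In whole liver, fewer cells of a type and less RNA per cell cannot be told apart. Rn45s, a ribosomal RNA precursor, took 2.20% to 4.11% of counts in MODEL2, 2.68% to 13.4% in MODEL1 and 2.43% to 10.3% in CTRL. Intervals given below cover counting error only, and p-values measure the spread between these 9 mice.

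Summed over the 9 members, transferase counts were far higher in both models than in CTRL and higher in MODEL1 than in MODEL2. The pooled level was 729, 691 and 472 CPM in MODEL2, 1078, 1789 and 1232 CPM in MODEL1, and 80.8, 102 and 193 CPM in CTRL. The groups did not overlap, and CTRL replicate 3, the 17-week-old mouse, was the highest CTRL library. In MODEL1 the pooled level was 10.7 times that in CTRL (95% counting interval 8.58 to 13.4), and in MODEL2 5.02 times (3.99 to 6.39). MODEL2 stood at 0.470 times MODEL1 (0.421 to 0.525). The members together took 0.0467% to 0.0663% of all counts in MODEL2, 0.0934% to 0.192% in MODEL1 and 0.00672% to 0.0189% in CTRL.

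The mu class held most of these counts: 397 of 466 in MODEL2, 934 of 1097 in MODEL1 and 52 of 87 in CTRL. Pooled mu averaged 539 ± 137 CPM in MODEL2, 1163 ± 290 CPM in MODEL1 and 75.1 ± 45.9 CPM in CTRL (SD, n = 3 each), with no overlap between any groups. Its level was 15.2 times that in CTRL in MODEL1 (11.5 to 20.5), 7.16 times in MODEL2 (5.35 to 9.75), and 0.471 times that of MODEL1 in MODEL2 (0.417 to 0.530). Without CTRL replicate 3 the log2 ratio to CTRL was 4.54 in MODEL1 and 3.47 in MODEL2, against 3.93 and 2.84 with all libraries. Pooled alpha was lower and closer between groups, at 84.2 ± 30.0 CPM in MODEL2, 178 ± 80.3 CPM in MODEL1 and 27.1 ± 9.49 CPM in CTRL. Its level was 6.38 times that in CTRL in MODEL1 (3.94 to 10.9) and 3.11 times in MODEL2 (1.84 to 5.50), without overlap of libraries. MODEL2 alpha stood at 0.488 times MODEL1 (0.357 to 0.660), but the libraries of the models overlapped. No test was made of pooled levels, since the members were chosen with results known.

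**Figure D2:**
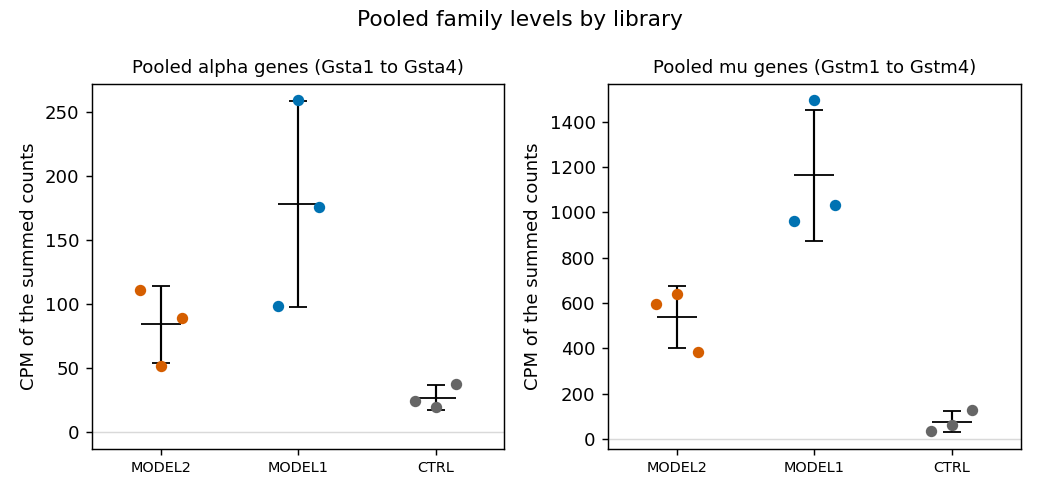
CPM of the summed alpha counts (left) and summed mu counts (right) in each library (points), with the group mean and SD (bars, n = 3) on linear axes. All MODEL2 and MODEL1 libraries lie above all CTRL libraries in both classes, and MODEL1 lies wholly above MODEL2 for mu only.

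In MODEL1 against CTRL, the test was passed, with higher levels in MODEL1, by all 4 members that it covered, Gsta3, Gstm1, Gstm3 and Gstm4, where 11.9% of the 2639 genes were called higher (edgeR's quasi-likelihood test, Benjamini-Hochberg adjusted p under 0.05). Gstm3 and Gstm4, with 5 and 2 CTRL counts, passed the filter through the models. Here and in MODEL2 against CTRL, their calls are thus no fair contrast with the share of all genes. Every MODEL1 library was above every CTRL library for 8 of the 9 members, Gstp1 being the exception. Of tested genes 18.5% showed that order, a share that does not cover Gsta1, Gsta2, Gsta4 and Gstm2, which the filter removed. For Gsta1 the order rested on 7 counts in MODEL1 and 0 in CTRL. In the fit without a filter, which covered all 9 members, 7 were called higher in MODEL1, all but Gsta1 and Gstp1, against 2.13% of 14907 genes. That share is lowered by genes with few counts: 317 genes were called higher without the filter and 313 with it.

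In MODEL2 against CTRL, Gstm1, Gstm3 and Gstm4 were called higher and Gsta3 was not, with 8.30% of the 2639 genes called higher. Libraries did not overlap for 6 of the 9 members, Gsta2, Gsta4 and the 4 mu genes, with MODEL2 higher. Of tested genes, which leave out Gsta2, Gsta4 and Gstm2, 17.5% had every MODEL2 library above every CTRL library. Without a filter the same 3 mu genes were called higher, against 1.25% of genes, a share likewise lowered by genes with few counts. MODEL1 and MODEL2 were compared with the same CTRL libraries, so these counts are not independent.

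In MODEL2 against MODEL1, Gstm3 and Gstm4 were called lower in MODEL2, with 3.41% of the 2639 genes called lower. For Gsta2, Gstm1, Gstm3 and Gstm4 every MODEL2 library was below every MODEL1 library, an order that 13.2% of tested genes showed. Gsta2 was not among the tested genes. The median log2 fold change of all tested genes was 0.00 in MODEL1 against CTRL and in MODEL2 against CTRL, and 0.01 in MODEL2 against MODEL1.

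**Figure D3:**
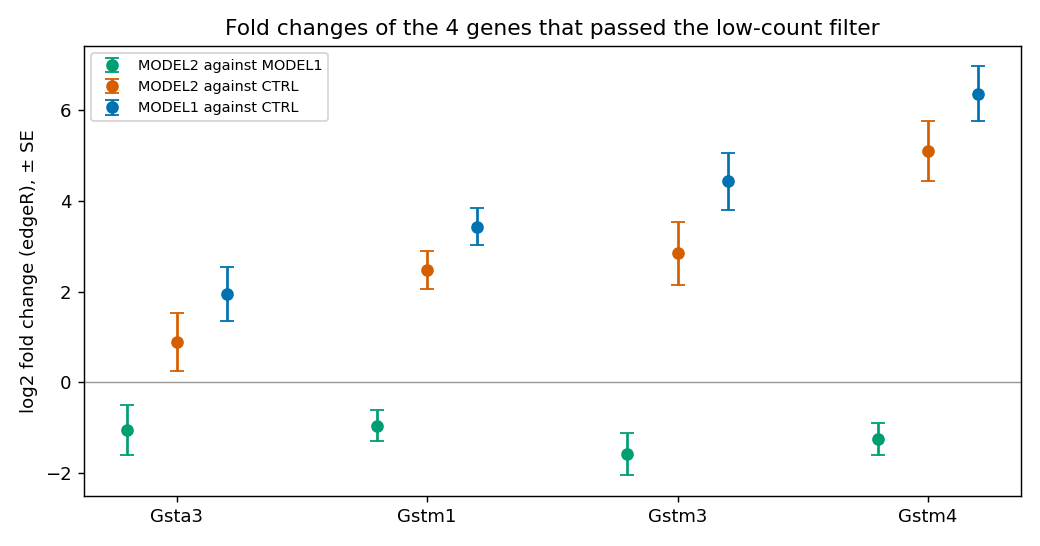
log2 fold change with its SE from edgeR for the 4 members that passed the filter on low counts, for MODEL2 against MODEL1 (green), MODEL2 against CTRL (orange) and MODEL1 against CTRL (blue). Gstm4 has the largest value against CTRL of the 4 in both models, 5.10 in MODEL2 and 6.36 in MODEL1, and all 4 values of MODEL2 against MODEL1 are below 0.

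Gstm1, the main mu enzyme of mouse liver, was the most abundant member. It had 100, 97 and 58 counts in MODEL2, 137, 215 and 189 in MODEL1, and 4, 11 and 28 in CTRL. The CTRL libraries were all lower than any library of a model, although they differed widely among themselves, from 16.2 CPM in replicate 1 to 117 CPM in replicate 3. Gstm1 averaged 346 ± 97.2 CPM in MODEL2, 676 ± 209 CPM in MODEL1 and 62.3 ± 51.2 CPM in CTRL. It rose in MODEL1 by 3.43 ± 0.41 on the log2 scale (SE, edgeR adjusted p = 1.6e-06) and in MODEL2 by 2.47 ± 0.42 (edgeR adjusted p = 0.000262). Without CTRL replicate 3 the log2 fold change was 4.29 in MODEL1 and 3.35 in MODEL2. Between the models the difference of -0.96 ± 0.34 did not pass (edgeR adjusted p = 0.0988). It passed with 3 settings: in a fit of those 2 groups alone (edgeR adjusted p = 0.00890) and without CTRL replicate 1 (0.0376) or CTRL replicate 3 (0.0419).

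Gstm4, another mu enzyme and the gene at the upper end of the cluster, was nearly undetected in CTRL and the second member by level in both models. It had 28, 37 and 20 counts in MODEL2, 86, 64 and 75 in MODEL1, and 0, 0 and 2 in CTRL. The groups did not overlap, and MODEL1 and MODEL2 were also apart from each other. In summed counts the level in MODEL1 was 95.3 times that in CTRL (26.1 to 792) and in MODEL2 39.9 times (10.7 to 334), both resting on 2 CTRL counts in replicate 3. Gstm4 rose by 6.36 ± 0.60 on the log2 scale in MODEL1 (edgeR adjusted p = 4.6e-08) and by 5.10 ± 0.66 in MODEL2 (9.1e-06). Without CTRL replicate 3 CTRL has no Gstm4 count and no fold can be given. The level in MODEL2 was 0.418 times that in MODEL1 (0.322 to 0.539), a log2 difference of -1.26 ± 0.35 (edgeR adjusted p = 0.0347).

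Gstm3, a mu enzyme close in sequence to Gstm1, had 22, 9 and 10 counts in MODEL2, 27, 57 and 50 in MODEL1, and 3, 2 and 0 in CTRL. All 3 groups were apart in CPM, though MODEL2 replicate 1 came near MODEL1 replicate 1, at 84.4 against 102 CPM. Gstm3 rose in MODEL1 by 4.43 ± 0.63 on the log2 scale (edgeR adjusted p = 1.5e-05) and in MODEL2 by 2.85 ± 0.70 (0.00758). Leaving out CTRL replicate 1 gave 5.03 and 3.47, and leaving out CTRL replicate 3 gave 3.84 and 2.27, with all these calls kept. MODEL2 was lower than MODEL1 by a log2 fold change of -1.59 ± 0.46 (edgeR adjusted p = 0.0387).

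Gstm2, the lowest of the 4 mu genes, had 5, 5 and 6 counts in MODEL2, 4, 16 and 14 in MODEL1, and 2, 0 and 0 in CTRL. Both models were above CTRL in every library, while MODEL2 lay within the range of MODEL1. The level in MODEL1 was 14.4 times that in CTRL (3.69 to 124) and in MODEL2 7.50 times (1.76 to 67.3), again over 2 CTRL counts. In the fit without a filter Gstm2 passed in MODEL1 (edgeR adjusted p = 0.00698) and not in MODEL2 (edgeR adjusted p = 0.218).

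**Figure D4:**
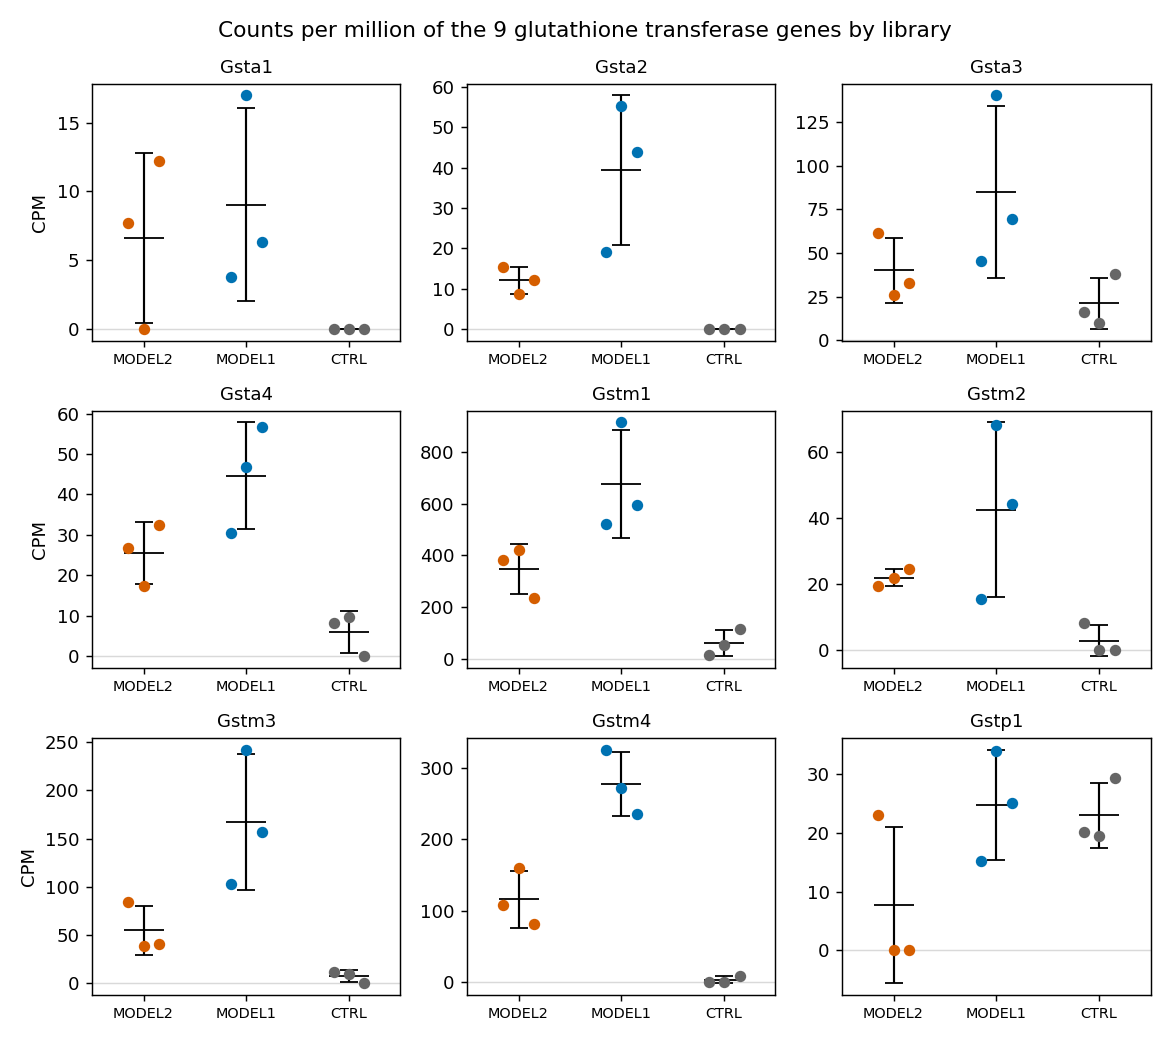
CPM of each member in every library (points) with the group mean and SD (bars, n = 3), on a linear axis of its own for each gene. The CTRL points lie below every MODEL1 point for all members except Gstp1, and 2 of the 3 MODEL2 libraries are at 0 for Gstp1.

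The calls between the models were the least stable. Gstm3 lost its call without MODEL1 replicate 2 (edgeR adjusted p = 0.247) or 3 (0.100) and without MODEL2 replicate 2 (0.142) or 3 (0.159). Gstm4 lost it without any 1 of the MODEL1 libraries (0.114, 0.0921 and 0.0651 for replicates 1, 2 and 3) and without MODEL2 replicate 1 (0.152) or 3 (0.171). Both calls were also lost with no filter (edgeR adjusted p = 0.0568 for Gstm3 and 0.0809 for Gstm4) and with age as a covariate (0.714 and 0.288). The Gstm3 call was also lost with total-count scaling (0.0546). The log2 fold change of Gstm4 was -1.17 with no filter and -1.25 with age. That of Gstm3 was -1.50 and -0.65 in the same order, and -1.70 with total-count scaling. A further fit left out the Rn45s-rich libraries, with Rn45s over 8% of counts: CTRL replicate 1 and MODEL1 replicates 1 and 3. It left MODEL1 replicate 2 alone in its group, so only fold changes are given, -1.14 for Gstm4 and -2.05 for Gstm3. Age differed between the groups without overlap, with MODEL2 the oldest and CTRL the youngest. With age as a covariate the edgeR adjusted p for MODEL2 against CTRL was 0.434 for Gstm1 (log2 fold change 1.65 ± 0.80), 0.0501 for Gstm3 (5.60 ± 1.51) and 0.0439 for Gstm4 (5.11 ± 1.33). In MODEL1 against CTRL that fit kept Gstm1 (2.94 ± 0.60), Gstm3 (6.25 ± 1.05) and Gstm4 (6.37 ± 0.93).

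The make-up of the mu counts also differed. Gstm4 made up 21.4% of them in MODEL2 (exact 95% interval 17.5% to 25.8%), 24.1% in MODEL1 (21.4% to 27.0%) and 3.85% in CTRL (0.469% to 13.2%). By library this share was 18.1%, 25.0% and 21.3% in MODEL2, 33.9%, 18.2% and 22.9% in MODEL1, and 0%, 0% and 6.67% in CTRL, where the 3 libraries held only 9, 13 and 30 mu counts. Every library of a model was above every CTRL library. Gstm1 made up 64.2% in MODEL2 (59.3% to 69.0%), 57.9% in MODEL1 (54.7% to 61.1%) and 82.7% in CTRL (69.7% to 91.8%), but CTRL replicate 1, at 44.4%, lay below all the libraries of the models. Gstm3 made up 10.3% in MODEL2, 14.3% in MODEL1 and 9.62% in CTRL, and Gstm2 4.03%, 3.64% and 3.85% in the same groups. In the CTRL libraries these shares ran from 0% to 33.3% for Gstm3 and from 0% to 22.2% for Gstm2, both highest in replicate 1 with its 9 mu counts, so that CTRL overlapped the models.

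**Figure D5:**
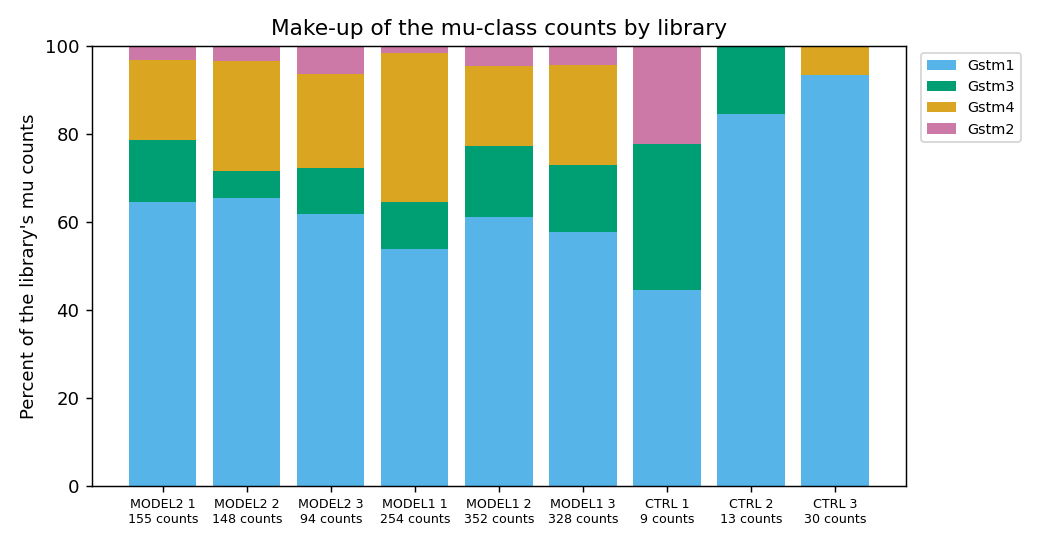
Percent of each library's mu counts that fell in Gstm1, Gstm3, Gstm4 and Gstm2, with the number of mu counts under each bar. The Gstm4 part (gold) is 18.1% to 33.9% in the libraries of the models and absent from CTRL replicates 1 and 2.

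The rest of the mu cluster gave few counts. Gstm5 had no count in any library, Gstm6 had 3 in MODEL2, 2 in MODEL1 and 2 in CTRL, and Gstm7 had 1, 2 and 1 in the same groups. Of the genes next to the cluster, only Eps8l3 was tested, and it was called in neither model against CTRL. Eps8l3, below the cluster, had 83 counts in MODEL2, 109 in MODEL1 and 41 in CTRL (edgeR adjusted p = 0.173 for MODEL2 and 0.0590 for MODEL1 against CTRL). In summed counts Eps8l3 was still 1.90 times CTRL in MODEL2 (1.29 to 2.83), without overlap of libraries, and 2.25 times in MODEL1 (1.56 to 3.31), with overlap. Ampd2, above the cluster, had 9, 5 and 11 counts in MODEL2, MODEL1 and CTRL and was too low for the test.

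Among the alpha genes, Gsta3, the alpha enzyme of mouse liver known for detoxifying aflatoxin, had the most counts. It had 16, 6 and 8 counts in MODEL2, 12, 33 and 22 in MODEL1, and 4, 2 and 9 in CTRL. MODEL1 stood above CTRL in every library, whereas CTRL replicate 3, at 37.7 CPM, was above MODEL2 replicates 2 and 3, at 25.9 and 32.5 CPM. Gsta3 rose in MODEL1 by 1.94 ± 0.60 on the log2 scale (edgeR adjusted p = 0.0208). That call was lost without MODEL1 replicate 2 (log2 fold change 1.42 ± 0.66, edgeR adjusted p = 0.155), without CTRL replicate 1 (0.0742) or 2 (0.0729), and with age as a covariate (0.343); without CTRL replicate 3 it was kept at 2.61. In MODEL2 against CTRL the value was 0.89 ± 0.64 (edgeR adjusted p = 0.411), and in MODEL2 against MODEL1 -1.05 ± 0.55 (edgeR adjusted p = 0.292).

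Gsta4, which acts on the lipid oxidation product 4-hydroxynonenal, had 7, 4 and 8 counts in MODEL2, 8, 11 and 18 in MODEL1, and 2, 2 and 0 in CTRL. Both models were above CTRL in every library, and the models overlapped. The level in MODEL1 was 7.84 times that in CTRL (2.82 to 30.3) and in MODEL2 4.45 times (1.48 to 18.0). Without a filter Gsta4 passed in MODEL1 (log2 fold change 2.81 ± 0.84, edgeR adjusted p = 0.0224) and not in MODEL2 (edgeR adjusted p = 0.377).

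Gsta1 and Gsta2, near-identical enzymes that are known as inducible in mouse liver, had no count in any CTRL library. Gsta2 had 4, 2 and 3 counts in MODEL2 and 5, 13 and 14 in MODEL1, each above CTRL, and MODEL2 was below MODEL1 in every library. The exact 95% lower limit of the Gsta2 ratio, which takes in the counting error of both groups, was 6.93 for MODEL1 and 1.85 for MODEL2 against CTRL. Without a filter it passed in MODEL1 (edgeR adjusted p = 0.000530) and not in MODEL2 (edgeR adjusted p = 0.129). Gsta1 had 2, 0 and 3 counts in MODEL2 and 1, 4 and 2 in MODEL1. The lower limit of its ratio to CTRL was 1.22 in MODEL1 and 0.859 in MODEL2, where 1 library was at 0. A difference in MODEL2 was thus not detectable with these counts. It passed in neither model without a filter (edgeR adjusted p = 0.398 for MODEL1 and 0.652 for MODEL2). Reads of either gene could have been counted for the other, as the printed coding stretch shows, and Gsta1 shared most of all with Gm3776. Of pooled alpha counts Gsta3 made up 47.6% in MODEL2, 46.9% in MODEL1 and 78.9% in CTRL (exact 95% interval 54.4% to 93.9%). By library the Gsta3 counts in CTRL were 4 of 6, 2 of 4 and 9 of 9 counts, and the share in replicate 2 lay below MODEL2 replicate 1, at 55.2%, and MODEL1 replicate 2, at 54.1%.

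Gstp1, the pi-class enzyme, did not share the pattern. It had 6, 0 and 0 counts in MODEL2, 4, 8 and 8 in MODEL1, and 5, 4 and 7 in CTRL. MODEL1 and CTRL overlapped, and all MODEL2 counts came from replicate 1. The level in MODEL1 was 1.06 times that in CTRL (0.521 to 2.19), and a fit without a filter gave a log2 fold change of 0.06 ± 0.79. The level in MODEL2 was 0.352 times that in CTRL (0.113 to 0.946) and 0.332 times that in MODEL1 (0.109 to 0.857), with overlap in both. Neither difference passed without a filter, at -1.42 ± 0.91 against CTRL (edgeR adjusted p = 0.717) and -1.48 ± 0.89 against MODEL1 (edgeR adjusted p = 0.773). Its near-copy Gstp2 had 2 counts in MODEL2, 0 in MODEL1 and 0 in CTRL.

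Per kilobase of exon the order of the members was alike in both models at the top. The length is the union of all annotated exons, 4344 bases for Gsta3 against 956 to 1707 for the other members. This length lowers the rank of Gsta3. In CPM Gsta3 averaged 39.9 in MODEL2 and 85.0 in MODEL1, above Gsta4 at 25.6 and 44.6. In MODEL2 Gstm1 averaged 235 CPM per kb, above Gstm4 at 68.1 and Gstm3 at 41.7, which overlapped each other, and Gsta4 at 20.2 was below Gstm3 in every library. The levels from Gsta4 down, through Gstm2 at 12.9, Gsta2 at 10.2, Gsta3 at 9.19 and Gsta1 at 6.93 to Gstp1 at 4.96 CPM per kb, overlapped from each gene to the next. In MODEL1 Gstm1 averaged 459 CPM per kb, Gstm4 163 and Gstm3 128, with an overlap of Gstm4 and Gstm3 only. Below them neighbours overlapped, from Gsta4 at 35.2, Gsta2 at 33.5, Gstm2 at 25.2, Gsta3 at 19.6 and Gstp1 at 16.0 to Gsta1 at 9.44 CPM per kb. In CTRL Gstm1, at 42.3 CPM per kb, overlapped Gstp1, at 14.8, and Gstp1 stood above Gstm3, at 5.55, in every library. The other genes of CTRL lay between 4.88 CPM per kb for Gsta3 and 0 for Gsta1 and Gsta2, each overlapping the next.

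The other genes of the glutathione pathway were read from lists by function. Of 16 other glutathione transferases in the table, 3 could be tested: Gstt2 of the theta class, Gstz1, which isomerises maleylacetoacetate in tyrosine breakdown, and the microsomal Mgst1. No gene of these 3 was called in any comparison (edgeR's quasi-likelihood test). At an unadjusted p under 0.05 there were 1 in MODEL1 against CTRL, 0 in MODEL2 against CTRL and 2 in MODEL2 against MODEL1, and DESeq2 called 0 in each. Gstz1 summed to 214 counts in MODEL2, 151 in MODEL1 and 198 in CTRL, so that it, and not a mu or alpha gene, was the most counted transferase of those listed in CTRL. Pomt2 has exons on its opposite strand.

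Among genes that make or recycle glutathione, 5 of 12 could be tested. In MODEL1 4 rose: Gclc, the catalytic subunit of the rate-limiting ligase (log2 fold change 2.11 ± 0.30, edgeR adjusted p = 1.7e-05), Gss (glutathione synthetase, 3.63 ± 0.26, 7.1e-10), Slc7a11 (the cystine importer, 3.54 ± 0.62, 0.000173) and Gsr (glutathione reductase, 2.21 ± 0.76, 0.0376). In MODEL2 2 rose, Gss (3.13 ± 0.26, edgeR adjusted p = 1.4e-08) and Gclc (1.65 ± 0.31, 0.000632), and with age as a covariate Gclc lost this call (0.91 ± 0.61, edgeR adjusted p = 0.586). Over the 5 genes the median log2 value was 2.21 in MODEL1 and 1.53 in MODEL2 against CTRL, and -0.50 in MODEL2 against MODEL1, where Slc7a11 was lower (-2.31 ± 0.53, edgeR adjusted p = 0.0104). Because a gene can pass the filter through a model in which it is high, these medians do not stand for all 12 genes. Acss2 has exons opposite those of Gss. Slc7a11 in MODEL1 against CTRL stood at 2.91 without CTRL replicate 1 and 4.94 without CTRL replicate 2. Its difference between the models lost its call without MODEL2 replicate 3 (edgeR adjusted p = 0.0656) and with age as a covariate (0.266). Gsr lost its call with age as a covariate (edgeR adjusted p = 0.341), without a filter (0.102) and with a filter of 1 CPM in 3 libraries (0.0746). The Gsr call was also lost without CTRL replicate 1 (0.189) or 3 (0.129) and without MODEL1 replicate 1 (0.0965), 2 (0.115) or 3 (0.104). The same held without MODEL2 replicate 1 (0.0597) or 3 (0.0584). Without the Rn45s-rich libraries, which left a single MODEL1 mouse, the Gsr log2 fold change was 1.91. That of Slc7a11 between the models was then -2.07.

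Of 16 genes for export and processing of conjugates in the table, 2 could be tested, Abcc2 and Abcc4, and Abcc4 passed the filter through the models alone. Abcc4, an export pump of the multidrug resistance family, rose by 6.87 ± 0.70 in MODEL1 (edgeR adjusted p = 1.4e-07) and by 5.16 ± 0.81 in MODEL2 (0.000101), and was lower in MODEL2 than in MODEL1 (-1.71 ± 0.40, 0.0104). The single CTRL count of Abcc4, in replicate 3, leaves the ratio of summed counts at 153 in MODEL1 (27.2 to 6089) and 47.8 in MODEL2 (8.21 to 1926) against CTRL, and without that library CTRL has none. With age as a covariate the call in MODEL2 was lost (3.13 ± 1.41, edgeR adjusted p = 0.368). The difference between the models lost its call without MODEL1 replicate 2 (edgeR adjusted p = 0.104) or MODEL2 replicate 1 (0.0647) or 2 (0.0574). Abcc2 was not called.

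Of 11 glutathione peroxidases and glutaredoxins 3 could be tested, and their median log2 fold change was -0.03 in MODEL1 and 0.87 in MODEL2 against CTRL and 0.33 in MODEL2 against MODEL1. These medians hold only for genes that passed the filter. Glrx5, a mitochondrial glutaredoxin, rose in MODEL1 (4.47 ± 0.85, edgeR adjusted p = 0.000408). Its 2 CTRL counts, both in replicate 1, leave a ratio of 25.4 (6.74 to 215), and without that library CTRL has none. None of the 3 was called by edgeR's test in MODEL2 against CTRL or in MODEL2 against MODEL1, where 1 had an unadjusted p under 0.05 in each and DESeq2 called 0.

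Of 17 other known NRF2 targets 5 could be tested, and 4 rose in MODEL1, including Srxn1 (sulfiredoxin, 5.49 ± 0.86, edgeR adjusted p = 5.0e-05), Ugdh (the source of UDP-glucuronic acid, 4.54 ± 0.84, 0.000334) and Ephx1 (microsomal epoxide hydrolase, 2.43 ± 0.57, 0.00278). In MODEL2 2 rose, Srxn1 (3.83 ± 0.99, edgeR adjusted p = 0.0112) and Ugdh (3.34 ± 0.93, 0.0179). Srxn1 had 1 CTRL count, in replicate 1, and ratios of 59.3 in MODEL1 (10.3 to 2375) and 18.8 in MODEL2 (3.0 to 777). It lost the call in MODEL2 without MODEL2 replicate 1 (edgeR adjusted p = 0.0545) and with age as a covariate (0.0796). Ugdh had 2 CTRL counts, in replicate 2, and ratios of 26.7 in MODEL1 (7.09 to 225) and 11.7 in MODEL2 (2.92 to 102). In MODEL2 Ugdh lost its call without CTRL replicate 1 (edgeR adjusted p = 0.0858) or 3 (0.0684) or MODEL2 replicate 2 (0.0877), and with age as a covariate (0.253). Without the Rn45s-rich libraries the log2 fold change of Ugdh in MODEL2 against CTRL was 2.79. Ephx1 lost its call in MODEL1 with age as a covariate (edgeR adjusted p = 0.0754). None of the 5 was called by edgeR's test between the models, where 3 had an unadjusted p under 0.05 and DESeq2 called 0. Over these 5 the median on the log2 scale was 2.43 in MODEL1 and 1.50 in MODEL2 against CTRL and -1.11 in MODEL2 against MODEL1. Srxn1 and Ugdh, with 1 and 2 CTRL counts, passed the filter through the models, so these medians do not stand for all 17 targets.

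The genes whose profile over the 9 libraries lay closest to the pooled members were found by the root mean square difference of mean-centred log2 CPM, over 2316 genes. They were Cyp2a5 (0.406 log2 units) and Cyp1a2 (0.452), cytochrome P450 enzymes that oxidise foreign compounds, Grina (0.446), Uvrag (0.465), known from autophagy, and Slc38a11 (0.475), of an amino acid transporter family. Exons of Gm45187 lie opposite those of Uvrag. By the same measure Gstm1, which holds most of the pooled counts, differed from the pool by 0.332, Gstm4 by 0.682, Gstm3 by 0.691 and Gsta3 by 0.863. These distances are a description, and all libraries share the same groups.

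Markers of some other liver cells differed between the groups as well, but several rested on few counts. Cholangiocyte markers summed to 1 count in MODEL2, 10 in MODEL1 and 0 in CTRL, and stellate cell and fibroblast markers to 4, 17 and 6. T cell markers summed to 0, 4 and 2 counts in the same groups and B cell markers to 4, 3 and 4, too few to read a difference. Summed Kupffer cell and macrophage markers, 5 of 6 detected and Adgre1 at 0, were 30.2 to 40.7 CPM in MODEL2, 62.9 to 97.7 CPM in MODEL1 and 28.3 to 53.4 CPM in CTRL. Cholangiocyte markers, 3 of 6 detected with Krt7, Epcam and Spp1 at 0, were 0 to 4.32 CPM in MODEL2, 11.4 to 12.7 CPM in MODEL1 and 0 CPM in CTRL. Stellate cell and fibroblast markers, 6 of 6 detected, were 3.84 to 8.13 CPM in MODEL2, 15.2 to 25.1 CPM in MODEL1 and 8.08 to 9.71 CPM in CTRL. Endothelial markers, 6 of 6 detected, were 199 to 432 CPM in MODEL2, 178 to 302 CPM in MODEL1 and 355 to 466 CPM in CTRL. T cell markers, 2 of 4 detected with Cd3d and Cd3g at 0, reached 0 CPM in MODEL2, 8.50 CPM in MODEL1 and 8.38 CPM in CTRL. B cell markers, 2 of 4 detected with Cd79b and Ms4a1 at 0, reached 11.5 CPM in MODEL2, 9.43 CPM in MODEL1 and 8.38 CPM in CTRL, and the neutrophil markers S100a8, S100a9 and Mpo were at 0. Their part in the transferase values was not tested.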

How the data were processed

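RNA from whole liver of 9 mice was sequenced, 1 library per mouse label. The deposited values were raw read counts per gene symbol, for which the submitters' processing notes name Trimmomatic 0.38, HISAT2 2.1.0, HTSeq 0.11.2 and mm10, without role or order. Trizol extraction and standard Illumina libraries were used, per the labels' protocols. Totals were 219504 to 325177 counts.

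The whole table was fitted in R 4.3.3 with edgeR 4.0.16 (quasi-likelihood F test, filterByExpr with a minimum count of 10, TMM, all 9 libraries in 1 model, Benjamini-Hochberg over 2639 genes, threshold 0.05). The common biological coefficient of variation was 0.259. The fit was also run on simulated counts with a common spread shared by all genes. That run does not check the calls of members with few counts. Count ratios carry exact conditional binomial 95% intervals, scaled by effective library size, and shares exact Clopper-Pearson intervals. Locations and transcripts come from GENCODE M21 (GRCm38), promoters from RefSeq GRCm38.p6, and the exon union gave lengths per kilobase.

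All 9 members were named, and in other lists up to 3 called genes per comparison with the largest change. Gclc in MODEL1 was added after its values were seen. The 5 genes nearest the pooled profile were named, provisional symbols left out. Members and lists were chosen with earlier results of these data known. DESeq2 1.42.0, other scalings and filters, a replicate block, age, and leaving out libraries were tried as alternatives.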

Additional observations from a re-analysis of the deposited data

How the results depend on the processing

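Members called higher in MODEL1 against CTRL numbered 4, and 7 with no filter or with a filter of 1 CPM in 3 libraries, where all 9 members were tested; leaving out 1 library at a time gave 3 to 7, with 4 or 7 members tested since the filter was applied anew. In MODEL2 against CTRL 3 were called, and 1 with age as a covariate; leaving out 1 library gave 3 to 3. In MODEL2 against MODEL1 2 were called lower. That count was 1 with total-count scaling, 0 with no filter, 0 with age as a covariate, and 0 to 3 when 1 library was left out. No count is given without the libraries in which Rn45s took over 8% of counts, since 1 MODEL1 mouse was left there. With a replicate block 0 were called between the models, while the 4 and 3 calls against CTRL stayed at 4 and 3. The numbers do not pair the samples: deviations of same-numbered libraries correlated at -0.121 to 0.0103 over 9 pairs, and 2 of 18 comparisons of a library with another group were best with its own number. The log2 ratio of pooled alpha against CTRL was 2.67 in MODEL1 and 4.01 without Gsta3, and 1.64 in MODEL2 and 2.95 without Gsta3. For pooled mu it was 3.93 in MODEL1 and 5.21 without Gstm1, and 2.84 in MODEL2 and 3.89 without Gstm1. The cause of these differences was not tested. With total-count scaling the median log2 fold change of all genes stood at 0.16 in MODEL1 and 0.10 in MODEL2 against CTRL, and in MODEL2 against MODEL1 it was 0.01, against -0.05 with that scaling. No fold change of a member, or of a named pathway gene in a comparison where it was called, and no pooled ratio turned its direction in the alternatives run for it. Shares, list medians, Gstz1 and Eps8l3 were not recomputed. With these count totals the members with few counts in CTRL have folds with wide limits.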
